A study of Homo sapiens with 9 samples.

Results

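The genes described here encode 9 proteins of cell-cell adhesion in epithelia: the classical cadherins CDH1 (E-cadherin) and CDH2 (N-cadherin), the catenins CTNNA1, CTNNB1, CTNND1 and JUP, the desmosomal proteins DSP and DSG2, and the adhesion molecule EPCAM. They were taken by gene symbol, and all 9 have a row in both deposited tables, out of 9221 transcripts in either table and 8775 in both. CDH1 heads the group because an earlier profiling experiment had listed it among the transcripts that PF846 stalls, and the question put to these data is whether CDH1 and the proteins around it were translated differently with either compound. The cells were Huh-7, an established line from a human hepatocellular carcinoma, given either PF8503 or PF846 at 1.5 μM, or 0.5% DMSO alone as the vehicle control, for 1 hr, with 3 libraries in each of these groups. By the library names no sequencing lane held more than 1 of the groups, so an effect of the lane and one of the compound cannot be told apart, and in bulk cells fewer cells making a protein and less translation per cell cannot be told apart either. PF8503 and PF846 are related small molecules that bind in the ribosome exit tunnel and stall the synthesis of selected proteins. The measurement is ribosome profiling, in which the mRNA fragments protected by ribosomes are sequenced, so that a count reports how many ribosomes were caught on a coding sequence.

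Cadherins span the plasma membrane and bind cadherins of the neighboring cell through calcium-dependent extracellular domains. Inside the cell, β-catenin or plakoglobin binds the end of the cadherin tail and α-catenin links them to actin, while p120-catenin holds the cadherin at the surface by masking the signals for its uptake. In desmosomes the same layout recurs, with desmogleins as the cadherins, plakoglobin as the adaptor and desmoplakin as the link to keratin filaments. β-catenin has a second life in the nucleus as the coactivator of Wnt signaling, and hepatocytes in culture depend on these junctions for their polarity.

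Each deposited table gives, for every transcript, the authors' mean over the vehicle libraries and the authors' mean over the compound libraries, in counts divided by size factors (normalized counts). No value of a single library is used here, so no replicate error, interval or test can be given, the depth per library is unknown, and every difference is a description. Change is given as the log2 of the compound mean over the vehicle mean. To place the values, the central 95% of all log2 ratios ran from -0.32 to 0.28 in the PF8503 table and from -0.23 to 0.22 in the PF846 table. The median transcript had an authors' vehicle mean of 397 normalized counts in the first and 382 in the second. The tables were normalized separately, so the same vehicle libraries have means 1.09 times higher in the PF8503 table, and levels are compared only within a table. Of the hepatocyte markers, 10 of 10 were listed in both tables, though a listing takes only more than 30 counts. Their vehicle means in the PF8503 table ran from 1249 normalized counts for APOH to 212970 for AFP. Of 10 markers of blood, endothelial and stromal cells, PECAM1 was listed in both tables and ACTA2 in the PF846 table, with vehicle means of at most 170.0 normalized counts.

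The proteins of the group fall in 2 kinds by where they are made, and whether this bears on the action of the compounds was not tested. CDH1, CDH2, DSG2 and EPCAM start with a signal sequence that targets them to the endoplasmic reticulum and later pass through the membrane once, whereas the catenins and desmoplakin are made in the cytosol. The first 30 codons of the 3 cadherins are shown because they hold the signal sequence, with the 19 codons of highest mean hydropathy (Kyte-Doolittle scale) in capitals, or those of them that fall within the 30. The coordinates are those of GRCh38 and, where the codons are split between exons, run across the intron.
CDH1, chr16:68737416-68738338, forward strand: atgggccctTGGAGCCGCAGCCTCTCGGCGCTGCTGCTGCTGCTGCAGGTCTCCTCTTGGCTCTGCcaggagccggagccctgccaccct
CDH2, chr18:28147755-28177022, reverse strand: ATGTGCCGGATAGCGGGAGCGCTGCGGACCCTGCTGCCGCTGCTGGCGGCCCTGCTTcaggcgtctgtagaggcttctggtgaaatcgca
DSG2, chr18:31498252-31519811, forward strand: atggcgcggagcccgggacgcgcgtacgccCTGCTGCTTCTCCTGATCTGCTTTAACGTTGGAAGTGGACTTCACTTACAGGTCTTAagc

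The mean hydropathy of these N-terminal windows was 1.12 in CDH1, 1.63 in CDH2 and 1.94 in DSG2. Among the 8695 proteins of the tables that could be compared, 18.3% had a higher N-terminal window than CDH1 and 5.36% a higher one than DSG2. The cytosolic proteins lay lower, at 0.96 in CTNNA1, -0.11 in JUP, -0.16 in CTNND1, -0.19 in CTNNB1 and -0.51 in DSP. CDH1 thus had the least hydrophobic N-terminus of the 3 cadherins.

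The second stretch of interest is the membrane-spanning segment, which leaves the ribosome late in the synthesis of these proteins. It is shown with 5 codons on each side, and the 19 codons of highest mean hydropathy after codon 40 are in capitals.
CDH1, chr16:68823584-68828217, forward strand: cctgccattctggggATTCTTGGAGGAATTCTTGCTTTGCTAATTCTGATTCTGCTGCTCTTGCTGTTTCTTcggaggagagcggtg
CDH2, chr18:27983049-27985051, reverse strand: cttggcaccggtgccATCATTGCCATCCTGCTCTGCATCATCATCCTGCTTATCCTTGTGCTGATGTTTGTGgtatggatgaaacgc
DSG2, chr18:31538927-31541227, forward strand: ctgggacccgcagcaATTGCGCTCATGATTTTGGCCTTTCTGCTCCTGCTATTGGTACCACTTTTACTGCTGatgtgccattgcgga
EPCAM, chr2:47379898-47385180, forward strand: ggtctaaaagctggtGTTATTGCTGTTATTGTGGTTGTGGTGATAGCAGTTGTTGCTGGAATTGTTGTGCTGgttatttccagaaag

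In CDH1 this window covers codons 713 to 731 of 882 and has a mean hydropathy of 3.35, which 0.345% of the compared proteins exceeded. It covers codons 725 to 743 of 906 in CDH2, 615 to 633 of 1118 in DSG2 and 268 to 286 of 314 in EPCAM, with means of 3.77, 3.25 and 3.62. No window of the cytosolic members was above 1.46, the value in CTNNA1. The counted codons that lie after the window make up 16.4% of those counted in CDH1, 17.3% in CDH2, 43.3% in DSG2 and 6.12% in EPCAM. The position matters for reading the values that follow, because a deposited value is a sum over codons and holds no position within it.

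**Figure D1:**
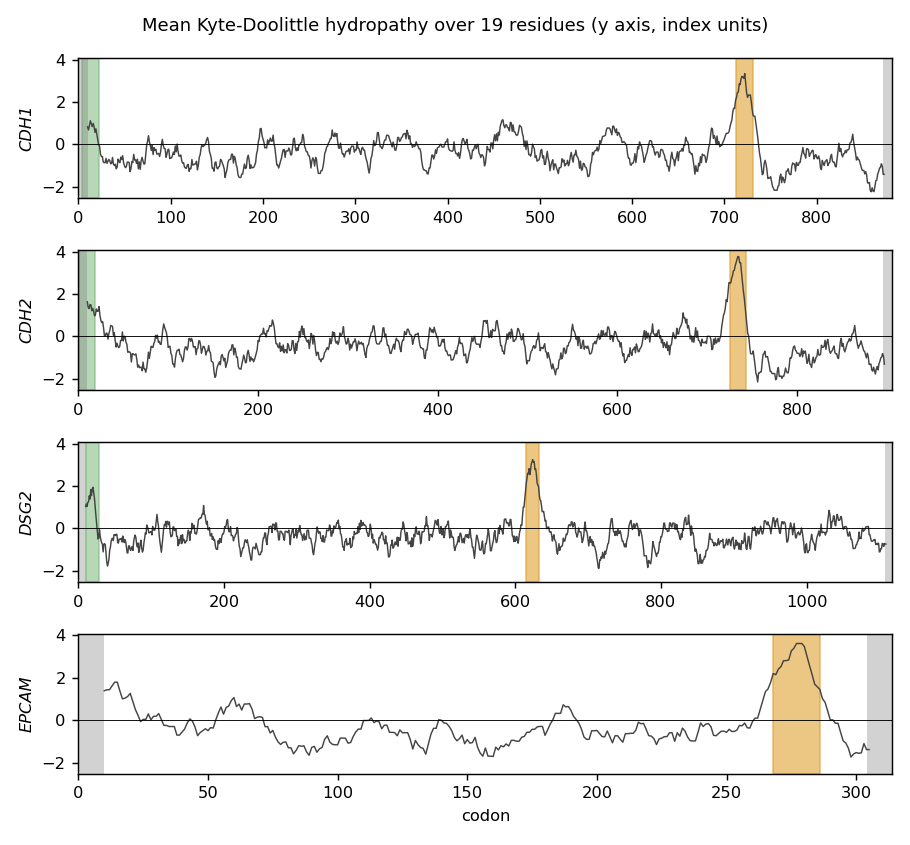
Mean Kyte-Doolittle hydropathy over 19 residues (y axis) along the codons (x axis) of CDH1, CDH2, DSG2 and EPCAM. Green marks the highest N-terminal window of the 3 cadherins, orange the highest later window and grey the 10 codons at each end that were left out of the counts; the orange window starts at codon 713 in CDH1 and at codon 268 in EPCAM.

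The footprint levels of the 9 genes with vehicle differed widely, and β-catenin stood apart from the other 8 genes. Per codon of the counted region, the authors' vehicle mean in the PF8503 table was 38.7 normalized counts for CTNNB1, higher than in 98.4% of the transcripts with a known length. CTNNA1 (α-catenin) followed at 4.06, EPCAM at 3.64, CDH2 at 3.23, CDH1 at 2.95 and CTNND1 (p120-catenin) at 2.38. The desmosomal proteins were lowest, with DSG2 (desmoglein-2) at 1.29, JUP (plakoglobin) at 1.21 and DSP (desmoplakin) at 0.80. CTNNB1 alone took 0.280% of the summed vehicle means, against 0.0242% for CDH1. The order was the same in both compound means, with 9 of 9 genes at the same rank. The vehicle mean of the PF846 table gave this order too, but it comes from the same vehicle libraries and could not differ. Without library values it cannot be said which neighbors in this order differ beyond their spread, and EPCAM and CDH2, or DSG2 and JUP, lie close together.

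**Figure D2:**
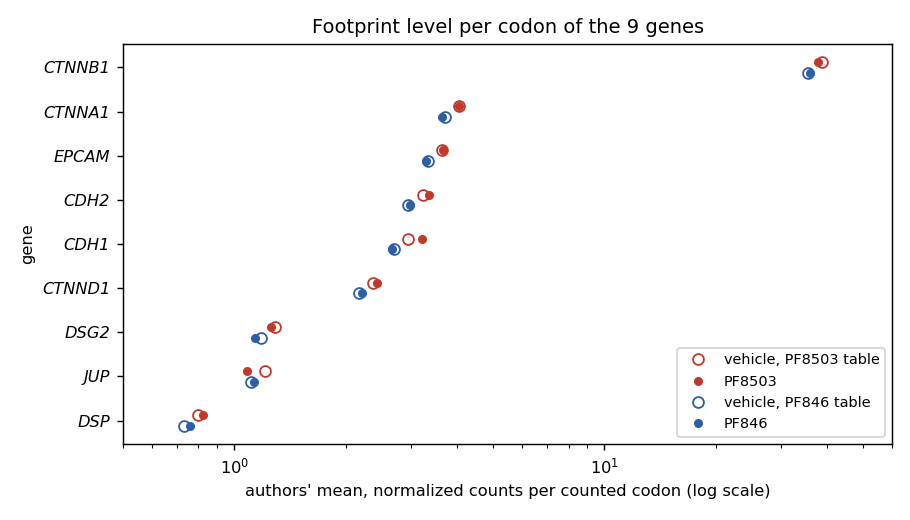
Authors' means per counted codon (x axis, normalized counts, log scale) for the 9 genes (y axis), with open circles for vehicle and filled circles for the compound, in red for the PF8503 table and blue for the PF846 table. CTNNB1 lies at 38.7 with vehicle in the PF8503 table and the other genes between 0.80 and 4.06.

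The proportions between partners varied little between conditions. The 2 cadherins had similar footprint levels. CDH1 had 0.914 times the counts per codon of CDH2 with vehicle, 0.959 times with PF8503 and 0.889 times with PF846. CTNNB1 had 13.1 times the counts per codon of CDH1 with vehicle, 11.8 times with PF8503 and 13.6 times with PF846. CTNNA1, which binds β-catenin in equal numbers in the complex, had 0.105 times the counts per codon of CTNNB1 with vehicle, 0.107 times with PF8503 and 0.101 times with PF846. CTNND1, which binds the cadherin tail closer to the membrane, had 0.805 times the counts per codon of CDH1 with vehicle, 0.755 times with PF8503 and 0.831 times with PF846. JUP had 0.0312 times the counts per codon of its paralog CTNNB1 with vehicle, 0.0286 times with PF8503 and 0.0313 times with PF846. In the desmosome, JUP had 0.939 times the counts per codon of DSG2 with vehicle, 0.864 times with PF8503 and 0.991 times with PF846.

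None of the 9 genes differed by 1.2-fold or more with either compound, where 7.05% of all transcripts did so with PF8503 (3.83% lower and 3.22% higher) and 3.33% with PF846 (1.90% lower and 1.43% higher). The median log2 ratio of the 9 genes was 0.0074 with PF8503 and 0.018 with PF846, beside 0.013 and 0.00086 over all transcripts. With each compound 5 genes were above 0 and 4 below. The values ran from -0.16 to 0.12 with PF8503 and from -0.050 to 0.051 with PF846. Every one of the 18 values lay within the central 95% of all transcripts in its table. Among transcripts with a vehicle mean of at least 100 this range was narrower. It ran from -0.31 to 0.25 with PF8503 and from -0.22 to 0.18 with PF846, and still held all 18 values. At a fold of 1.1, which 25.6% of all transcripts passed with PF8503 and 15.7% with PF846, JUP passed with PF8503 and no other gene passed with either compound.

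CDH1 (ENSG00000039068, chromosome 16, 68737292 to 68835537, forward strand, 16 exons) came to 2328 normalized counts in the vehicle mean of the PF846 table and to 2292 in the PF846 mean, a log2 ratio of -0.022. This corresponds to a difference of -1.53%, and 78.6% of all transcripts moved further from 0 with PF846. In the PF8503 table the vehicle mean was 2543 and the compound mean 2769, a log2 ratio of 0.12, the highest of the 9 genes. A lower log2 ratio with PF8503 was found for 83.3% of all transcripts, so CDH1 lay on the high side of the distribution, inside its central 95%.

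By the rule of the study, reads were summed 3' of DMax, the codon where the cumulative reads of compound and vehicle differ most, where the Z score of that difference reached 2, and otherwise over the coding sequence without 10 codons at each end. The vehicle libraries are shared between the tables, so a different region shows as a departure from the constant ratio of the vehicle means. The log2 departure was at most 8.9e-05 in the 9 genes, against a tolerance of 0.002 that 134 of 8775 transcripts exceeded, so in 9 of 9 genes both tables summed over identical codons. By the study's own account CDH1 stayed below the Z score cutoff with PF846, so its value covers 862 of its codons in both tables. Staying below that cutoff does not mean that no stall occurred. The levels per codon given above assume the full region for the other genes too. With even coverage and no change elsewhere, losing all reads after the membrane-spanning window would lower this sum by 0.26 on the log2 scale. This is arithmetic, not a measured change, and a partial loss would lower the sum by less. The sum also holds the codons in and before the window. Reads gained there would raise it, so -0.26 is not a limit. In EPCAM, where the window lies close to the end, the same loss would amount to a log2 ratio of -0.091. For CDH1 the value of -0.26 lies outside the central 95% of all transcripts with PF846 and inside it with PF8503. The deposited ratios of -0.022 and 0.12 are both above it, which does not tell whether reads after the window were lost. The deposited sums do not give the size of a loss, partial or complete, and where along CDH1 the reads lay was not tested. The study also tabulates CDH1, and plots its reads by codon, apart from the deposited tables. The value tabulated there for CDH1 with PF846 lies far from -0.022, and the cause was not looked into. The tabulated and plotted values are not used here. Whether the tabulated ones sum the same codons was not tested, so -0.022 stands for the deposited sum alone.

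**Figure D3:**
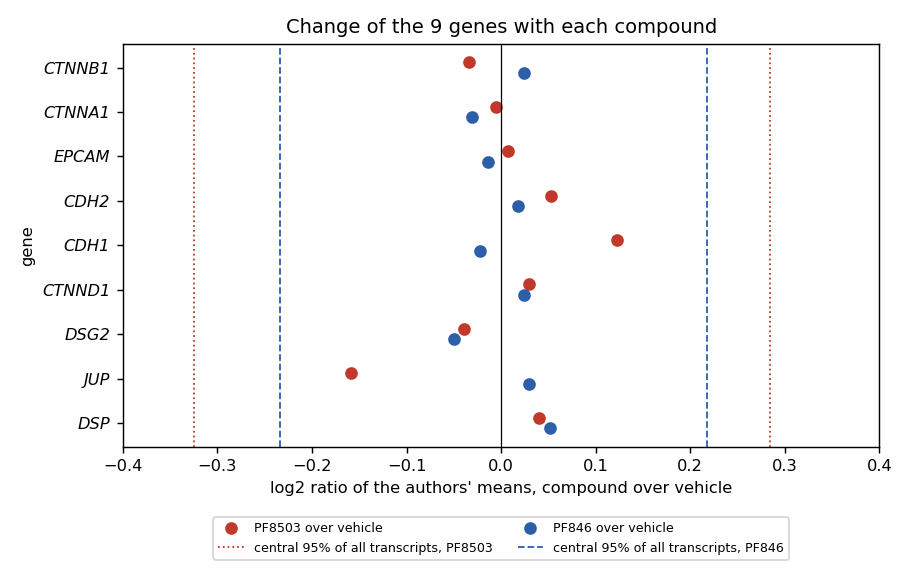
Log2 ratio of the authors' means, compound over vehicle (x axis), for the 9 genes (y axis) with PF8503 in red and PF846 in blue. Dotted and dashed lines bound the central 95% of all transcripts, from -0.32 to 0.28 with PF8503 and from -0.23 to 0.22 with PF846; all points lie inside them, and JUP and CDH1 with PF8503 lie farthest from 0.

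CDH2 (ENSG00000170558, chromosome 18, 27932879 to 28177946, reverse strand), the cadherin of mesenchymal and hepatocyte junctions, had a vehicle mean of 2860 and a PF8503 mean of 2966 normalized counts, a log2 ratio of 0.052. With PF846 its means were 2618 and 2650, a log2 ratio of 0.018. Its protein shares 49.3% of 870 aligned residues with CDH1, and the longest run of coding bases common to both is 18, shorter than a ribosome footprint. An exact footprint can thus be assigned to one of them, though an alignment that allows mismatches may still lose some.

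Among the catenins, JUP was the gene farthest from 0 with PF8503, and CTNNA1, at -0.031, with PF846. JUP (ENSG00000173801, chromosome 17, 41754604 to 41786931, reverse strand) encodes plakoglobin, the armadillo protein found in both adherens junctions and desmosomes. Its mean was 876 normalized counts with vehicle and 785 with PF8503, a log2 ratio of -0.16 or a difference of -10.4%, and 9.12% of all transcripts had a lower ratio. With PF846 the means were 802 and 819, a log2 ratio of 0.029. Its vehicle mean was also the lowest of the 9 in the PF8503 table. A share of 20.0% of all transcripts lay farther from 0 with PF8503 than JUP.

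CTNNB1 (ENSG00000168036, chromosome 3, 41194741 to 41260096, forward strand) encodes β-catenin. Its means were 29456 with vehicle and 28768 with PF8503, a log2 ratio of -0.034, and 26963 with vehicle and 27421 with PF846, a log2 ratio of 0.024. β-catenin and plakoglobin are 69.4% identical over 743 aligned residues. The most hydrophobic windows of the 2 proteins fall on the same armadillo stretch, codons 227 to 245 of CTNNB1 and 218 to 236 of JUP, shown to set the paralogs side by side at the level of bases. Capitals mark the bases that differ, 16 of 57.
CTNNB1, chr3:41225517-41225660, forward strand: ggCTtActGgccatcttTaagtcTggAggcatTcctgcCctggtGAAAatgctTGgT
JUP, chr17:41767580-41769024, reverse strand: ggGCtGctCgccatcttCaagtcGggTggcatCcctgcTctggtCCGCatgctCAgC

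Over the whole coding sequences, the longest run of bases common to CTNNB1 and JUP is 17, also shorter than a footprint, and the authors kept only reads with a single position. The values of the paralogs with PF8503, -0.034 and -0.16, were both below 0, and those with PF846, 0.024 and 0.029, both above 0.

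CTNNA1 (ENSG00000044115, chromosome 5, 138610967 to 138935034, forward strand), which encodes the actin-linking α-catenin, was the member closest to 0 with PF8503. Its means were 3594 and 3581 normalized counts, a log2 ratio of -0.0053, and with PF846 they were 3290 and 3221, a log2 ratio of -0.031. CTNND1 (ENSG00000198561, chromosome 11, 57753243 to 57819546, forward strand) went from a vehicle mean of 2252 to 2299 with PF8503, a log2 ratio of 0.029, and from 2062 to 2096 with PF846, a log2 ratio of 0.024. Of the catenins, CTNND1 thus lay above 0 with both compounds and CTNNA1 below 0 with both, by 0.031 or less in each of the 4 values.

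The desmosomal pair took opposite signs. DSP (ENSG00000096696, chromosome 6, 7541338 to 7586714, forward strand) has the longest coding sequence of the group, 2871 codons, and its vehicle mean of 2280 stood beside 2343 with PF8503, and that of 2087 beside 2162 with PF846. The log2 ratios were 0.039 and 0.051, the second being the highest of the group with PF846. DSG2 (ENSG00000046604, chromosome 18, 31498177 to 31549008, forward strand), the desmoglein of simple epithelia, had a vehicle mean of 1414 beside 1376 with PF8503, and of 1294 beside 1250 with PF846. Its log2 ratios of -0.040 and -0.050 were the second lowest with PF8503 and the lowest with PF846. Here too the ratios of a gene with PF8503 and PF846 share the vehicle libraries.

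EPCAM (ENSG00000119888, chromosome 2, 47345158 to 47387601, forward strand), a single-span glycoprotein of epithelial and hepatic progenitor cells, has the shortest coding sequence, 314 codons. Its means were 1070 and 1075 normalized counts with vehicle and PF8503, a log2 ratio of 0.0074, and 979 and 970 with vehicle and PF846, a log2 ratio of -0.014. With PF8503, 94.3% of all transcripts lay farther from 0.

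The compounds were set against each other at the same dose and time as the difference of the log2 ratios, PF8503 minus PF846, for the 9 genes, with no test and no interval, since neither comparison has library values. Both ratios share the vehicle libraries. The difference was -0.19 for JUP, and 13.2% of the transcripts in both tables differed by more. For CDH1 it was 0.14, which 21.8% exceeded in size. For the other 7 genes it lay between -0.058 in CTNNB1 and 0.035 in CDH2. That these differences are small does not show that the compounds act alike on these genes.

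The log2 ratios were also set out by membrane insertion. The 4 proteins with a signal sequence had log2 ratios of 0.12, 0.052, 0.0074 and -0.040 with PF8503 and of -0.022, 0.018, -0.014 and -0.050 with PF846, in the order CDH1, CDH2, EPCAM and DSG2. Those of the 5 cytosolic proteins ran from -0.16 to 0.039 with PF8503 and from -0.031 to 0.051 with PF846, so the ranges overlapped with both compounds. Whether membrane insertion bears on the ratios was not tested.

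Of 30 further adherens junction genes, 21 were listed in each table, 4 of them under older symbols, and 0 were past 1.2-fold in either direction with either compound. Their median log2 ratio was 0.046 with PF8503 (range -0.24 to 0.20) and 0.0011 with PF846 (range -0.22 to 0.13). The actin crosslinker ACTN4 had the lowest value with PF8503, a log2 ratio of -0.24 from means of 10598 and 8953, and NECTIN1, an immunoglobulin-like adhesion molecule, the lowest with PF846, -0.22 from means of 121 and 104. Both were within the 1.2-fold limit, which 7.05% of all transcripts passed with PF8503 and 3.33% with PF846. Of 15 further desmosome and keratin genes, 6 were listed, and 0 were past 1.2-fold. Their median log2 ratios were 0.023 (range -0.037 to 0.090) for PF8503 and 0.026 (range -0.032 to 0.077) for PF846. The desmosomal cadherins DSC1, DSC3, DSG1, DSG3 and DSG4 were not among the transcripts listed, whereas KRT8 and KRT18, the keratins of simple epithelia, had vehicle means of 39443 and 27214 normalized counts in the PF8503 table.

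Of 21 tight junction genes and EPCAM partners, 11 were listed with PF8503 and 9 with PF846, and 0 were past 1.2-fold. Their median log2 ratios were 0.073 (range -0.086 to 0.24) and 0.031 (range -0.094 to 0.24). Of 22 genes of β-catenin turnover and its nuclear partners, 20 were listed with PF8503 and 19 with PF846, with medians of 0.047 and 0.012. A single gene was past 1.2-fold with each compound, both of them higher, beside shares of 7.05% of all transcripts with PF8503 and 3.33% with PF846. With PF8503 it was TCF7L1, a DNA-binding partner of β-catenin, with means of 151 and 182 and a log2 ratio of 0.27. With PF846 it was BCL9L, a coactivator that binds β-catenin, with means of 393 and 482 and a log2 ratio of 0.30. The other compound gave 0.16 for TCF7L1 and 0.20 for BCL9L. Of the hepatocyte markers, APOH was past 1.2-fold with PF8503, at a log2 ratio of -0.80, and its counted region differed between the tables.

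**Figure D4:**
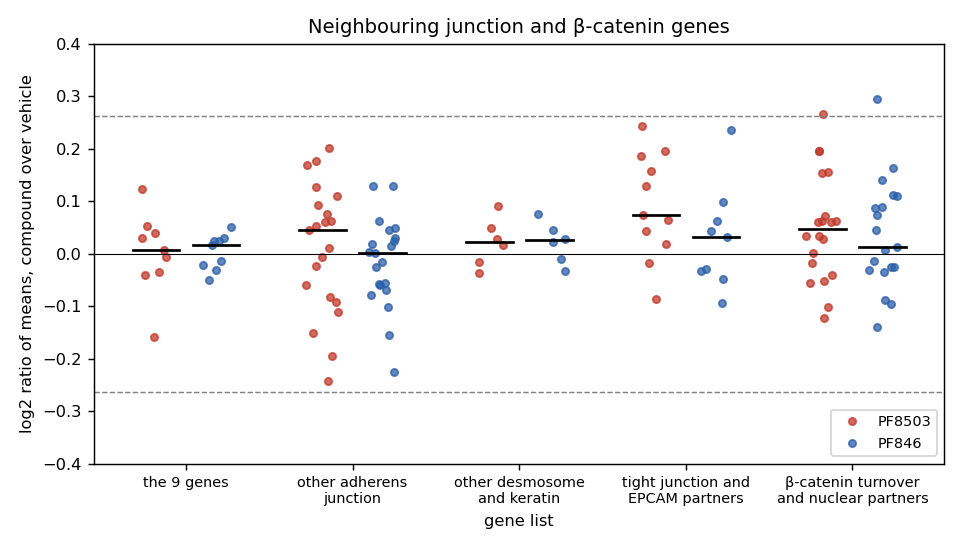
Log2 ratio of the authors' means, compound over vehicle (y axis), for the 9 genes and 4 lists of related genes (x axis), with PF8503 in red and PF846 in blue, a point for each listed gene and a black line at the median. Dashed lines mark 1.2-fold; TCF7L1 with PF8503 at 0.27 and BCL9L with PF846 at 0.30 are the only points beyond them.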

How the data were processed

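Ribosome footprints of 9 libraries, 3 for each condition, were analysed from 2 deposited tables. The authors removed adapters and ribosomal RNA reads, aligned the rest with Bowtie to canonical coding transcripts (GENCODE version 24, GRCh38), kept reads with a single position, and required more than 30 counts. The authors divided the counts by DESeq size factors and deposited the mean signal of each condition. The fold or ratio, log2 and p-value columns deposited by the authors hold their own comparisons and were not used. For Bowtie and DESeq, the version is not given in the sources used here.

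From the means, log2 ratios without a pseudocount, percentiles among all transcripts, and means per codon were computed. No model was fitted. Counted codons are the codons of the GENCODE version 44 canonical transcript less 10 at each end. Of 9221 symbols 94.4% had one, and the authors' transcript may differ. Mean hydropathy used windows of 19 residues. Pairs were aligned globally (BLOSUM62). The steps were tested on simulated data. The N-terminal window of EPCAM is not reported here.

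The 9 genes and all lists were chosen with earlier results of these data known. The text names the 9 genes and, from each list, genes past 1.2-fold. Other genes of the lists, and the marker genes, were named after their values were seen. Alternatives were other folds, pseudocounts of 1 and 10, a minimum vehicle mean of 100, centring, scaling to the total, the same region only, compound means alone, and all codons. Python 3.11.15, numpy 2.4.6, pandas 2.3.3, matplotlib 3.10.9 and biopython 1.88 were used.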

Additional observations from a re-analysis of the deposited data

How the results depend on the processing

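No paired analysis was possible because the tables hold means over libraries, and for the same reason no replicate could be left out in turn. None of the 81 alternative values of the 9 genes moved by more than 0.1 on the log2 scale. The largest move was 0.013, on centring the PF8503 ratios on their median. These alternatives add a small constant to large means or shift all genes nearly alike, so they could hardly pass that limit. Centring on the median turned EPCAM with PF8503 below 0, and with it the median of the 9 genes, from 0.0074 to -0.0054. Taking the compound means alone turned the sign of the difference between compounds for CTNND1 and DSG2, both near 0. At a fold of 1.1 the number of the 9 genes past the limit with PF8503 was 1, and the share of all transcripts was 25.6% with PF8503 and 15.7% with PF846. At a fold of 1.5 these shares were 0.874% and 0.339%. Under every other alternative listed 0 of the 9 genes were past 1.2-fold, and the order of the levels per codon was that given above with all codons counted. Size factors assume that most transcripts do not change, so a shift common to all transcripts would not be seen. The precision of the means is unknown.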
